A study of Mus musculus with 6 samples.

Results

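The 50 genes described here encode the machinery of mitosis: the kinases and cyclins that start it, the kinetochore and spindle that move chromosomes, the checkpoint that times anaphase, and the proteins that divide the cell. They were taken by symbol from a list written with earlier results of these data known, matched to gene identifiers through GENCODE mouse release M21, and all 50 were found among the 51912 genes of the deposited table. RNA was sequenced from primary fibroblasts of mice, treated for 48 h with CXCL3, a chemokine that acts through the receptor CXCR2 (3 libraries), or left as controls (3 libraries). Cells of both groups came from mice aged 6 weeks and share all labels but the treatment. The labels name no strain, sex, organ of origin, passage or dose of CXCL3. Nothing states that the 3 libraries of a group were separate cultures or animals, so p-values measure the spread between these libraries, which may be technical. The deposited values are TPM, a share of all transcripts corrected for length, which keeps no read depth, so no counting interval is given.

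Mitosis is driven by cyclin-dependent kinase CDK1 with cyclins A and B. The genes of this programme are transcribed together late in the cell cycle, under the transcription factors B-MYB and FOXM1, which act with the MuvB complex at promoters that carry a cell cycle genes homology region (CHR), and under NF-Y at CCAAT boxes. Their transcripts are scarce in resting cells, so that in a culture of cycling and resting cells their level moves with the share of cells in G2 and mitosis. In bulk RNA, fewer cells of a type and less RNA per cell cannot be told apart.

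Most of the 50 genes had more transcript in the CXCL3 libraries than in the control libraries, by a modest amount. The log2 fold change, CXCL3 minus control on the log2(TPM + 1) scale, was positive for 46 of 50, where it was positive for 62.3% of the 13139 genes tested. Genes were tested if they reached 1 TPM in at least 3 of the 6 libraries, and all 50 did. The median log2 fold change was 0.43 over the 50 and 0.07 over all genes tested. The 3 CXCL3 libraries lay wholly above the 3 control libraries for 30 of the 50 genes, which held for 7.92% of all genes tested. They lay wholly below for 2, Pttg1 and Ube2s, which held for 9.31% of all genes, and the groups overlapped for 18. Among the 30 is Kif18a, which reached 1 TPM only in its CXCL3 libraries, so the filter fixed its separation. The same 2 shares of all genes stand beside the counts of groups apart in each role below. The ratio of mean TPM, CXCL3 over control, was at least 1.2 for 36 genes and at least 1.5 for 15, and ran from 0.767 for Pttg1 to 2.32 for Cenpf.

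Dlgap5 alone passed the test over all genes (limma, Benjamini-Hochberg adjusted p under 0.05). It was 1 of the 50, where 0.0304% of all genes passed as higher and 0.129% as lower. Dlgap5 encodes HURP, a protein that binds and stabilises the microtubules of the kinetochore fibres near the chromosomes. It stood at 11.8, 13.6 and 13.85 TPM in CXCL3 libraries 1, 2 and 3, against 6.45, 4.94 and 5.84 TPM in controls 1, 2 and 3. Every CXCL3 library held more than any control, and the mean was 2.28-fold higher (log2 fold change 1.07 ± 0.14 SE, adjusted p = 0.0493). The gene (ENSMUSG00000037544) lies on chromosome 14 of GRCm38 from 47387779 to 47418407, on the minus strand. The call is narrow: it was lost in 14 of the 23 other settings tried, among them the removal of any single library but control 1 (adjusted p = 0.113 to 0.352), while the log2 fold change stayed between 0.75 and 1.18. The next smallest adjusted p among the 50 was 0.157, for Top2a. At an unadjusted p under 0.05, limma had 30 of the 50 genes higher and 1 lower, where 5.93% and 5.65% of all genes were. These 30 include Kif18a, whose direction was fixed by the filter.

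**Figure D1:**
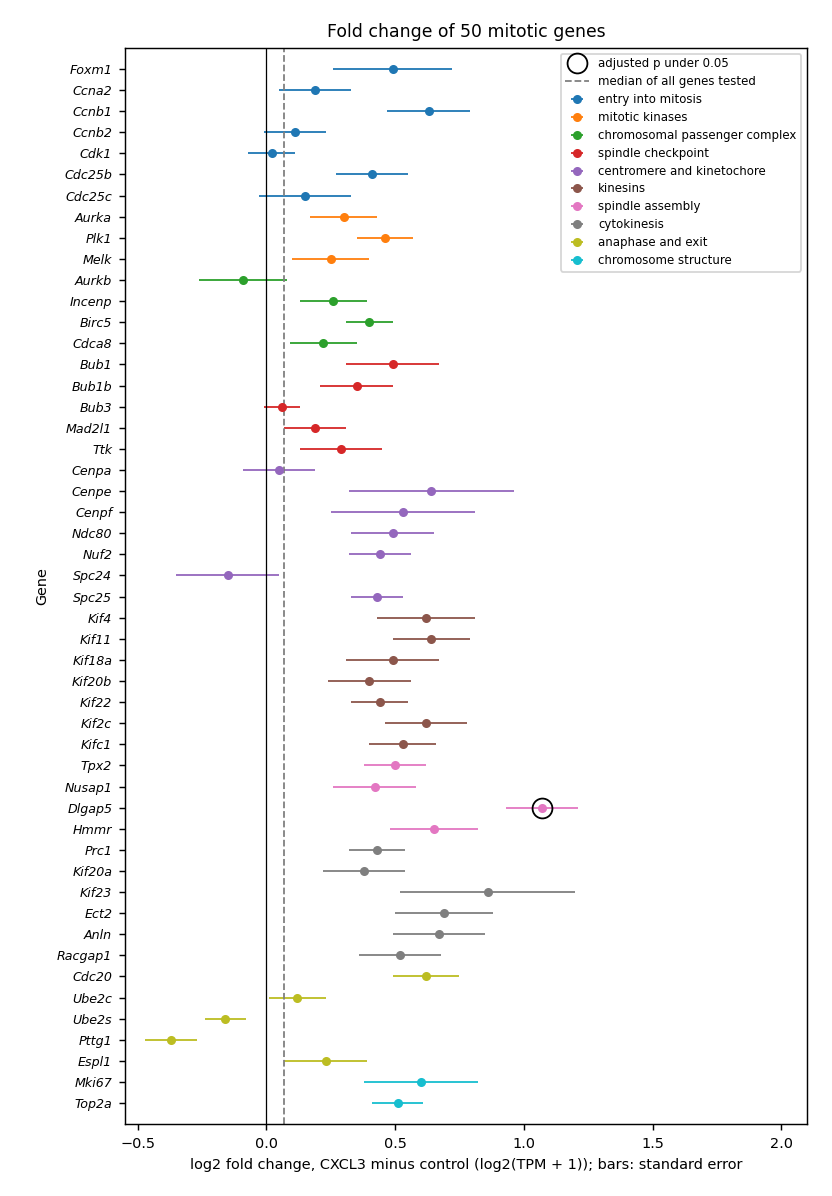
Log2 fold change (CXCL3 minus control, log2(TPM + 1), x axis) of the 50 mitotic genes, grouped by role, with standard errors as bars (3 libraries a group). The circled gene, Dlgap5, passed an adjusted p of 0.05, and 46 of the 50 points lie right of 0, where the dashed line marks the median of all genes tested, 0.07.

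The 6 libraries do not divide by label alone. Controls 2 and 3 stood apart from the other 4 libraries on the first principal component (52.9% of the variance) and held relatively less of long transcripts. Across genes, the deviation from the mean of the 6 libraries was correlated with the length of the longest transcript (Spearman) at 0.40, 0.37 and 0.20 in CXCL3 libraries 1, 2 and 3, against 0.45, -0.50 and -0.48 in controls 1, 2 and 3. Markers of macrophages as well as fibroblasts were abundant in these cultures labelled as fibroblasts: the 10 macrophage markers summed to between 14797 and 14900 TPM in CXCL3 libraries and between 15176 and 18168 TPM in controls, and the 10 fibroblast markers to between 3258 and 3358 TPM in CXCL3 libraries and between 3179 and 4232 TPM in controls. The macrophage lysozyme gene Lyz2 alone averaged 13186 TPM with CXCL3 and 14625 TPM in controls. All 10 macrophage markers were tested, and 3 had a positive and 7 a negative fold change, with C1qa lower in CXCL3 libraries (log2 fold change -0.78, limma adjusted p = 0.0493). Of the fibroblast markers, 9 were tested, 3 were positive, 6 were negative and Col3a1 was lower in CXCL3 libraries (-1.05, adjusted p = 0.0293). At an unadjusted limma p under 0.05, 1 macrophage marker was higher and 3 were lower, and 0 fibroblast markers were higher and 3 lower. Of all genes, 5.93% were higher and 5.65% lower at that p, and 0.129% passed the adjusted threshold as lower. The 5 neutrophil markers summed to between 530 and 583 TPM in CXCL3 libraries and between 554 and 669 TPM in controls, nearly all of it S100a8. The 5 T cell markers summed to between 0.370 and 2.35 TPM in CXCL3 libraries and between 0.680 and 1.29 TPM in controls, nearly all of it Trac, with Cd3d and Cd3e listed at 0 in all 6 libraries. The 5 dendritic cell markers summed to between 1.75 and 2.37 TPM in CXCL3 libraries and between 1.36 and 2.29 TPM in controls, with Flt3 listed at 0, and the 5 endothelial markers to between 2.32 and 3.64 TPM in CXCL3 libraries and between 1.63 and 2.65 TPM in controls, with Cldn5 listed at 0. Which cells the mitotic transcripts came from, and the part of these shifts in their difference, was not tested.

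Control 1, the control that resembled the CXCL3 libraries in its length profile, held less of the mitotic transcripts than they did. It is a single library, and the part of the length profile in the difference between groups was not tested. Control 1 was the highest of the 6 libraries for 0 of the 50 genes, while it was the highest for 37.0% of all genes tested. The 3 CXCL3 libraries all lay above control 1 for 37 of the 50 genes, against 16.6% of all genes, and all below it for 2, against 48.0% of all genes. Set against control 1 alone, the median log2 fold change of the 50 was 0.25, with 45 positive, while that of all genes was -0.08. When a smooth dependence on length and GC content was taken out of each library, the median deviation of the 50 genes from their own means was 0.15, 0.14 and 0.16 on the log2 scale in CXCL3 libraries 1, 2 and 3, against -0.18, -0.14 and -0.16 in controls 1, 2 and 3. Before that step it was 0.22, 0.19 and 0.17 in the CXCL3 libraries, against -0.06, -0.28 and -0.24 in the controls. The medians of the 3 controls then lay close together and below those of the CXCL3 libraries, with a median log2 fold change of 0.33 and the groups separate upward for 30 of the 50 genes, against 10.4% of all genes, and downward for 1, against 11.5%. Without control 1, 30 of the 50 genes passed as higher and 2 as lower, where 25.2% and 7.17% of all genes did, and without any other single library 0 passed by limma. At an unadjusted p under 0.05, 22 genes were higher without CXCL3 library 1 (2.69% of all genes), 23 without CXCL3 library 2 (2.77%), 22 without CXCL3 library 3 (3.50%), 21 without control 2 (3.22%) and 22 without control 3 (2.82%). Libraries were also weighted by how closely they followed the fitted mean of their group. The weight was 0.171 for control 1, 0.575 for control 2 and 0.873 for control 3. The weighted fit so rests more on controls 2 and 3, which held relatively less of long transcripts. With weights, 21 genes passed as higher and 1 as lower, where 7.96% and 3.04% of all genes did. With weights and the length and GC trend removed, 10 passed as higher and 0 as lower, where 1.44% and 2.14% did.

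**Figure D2:**
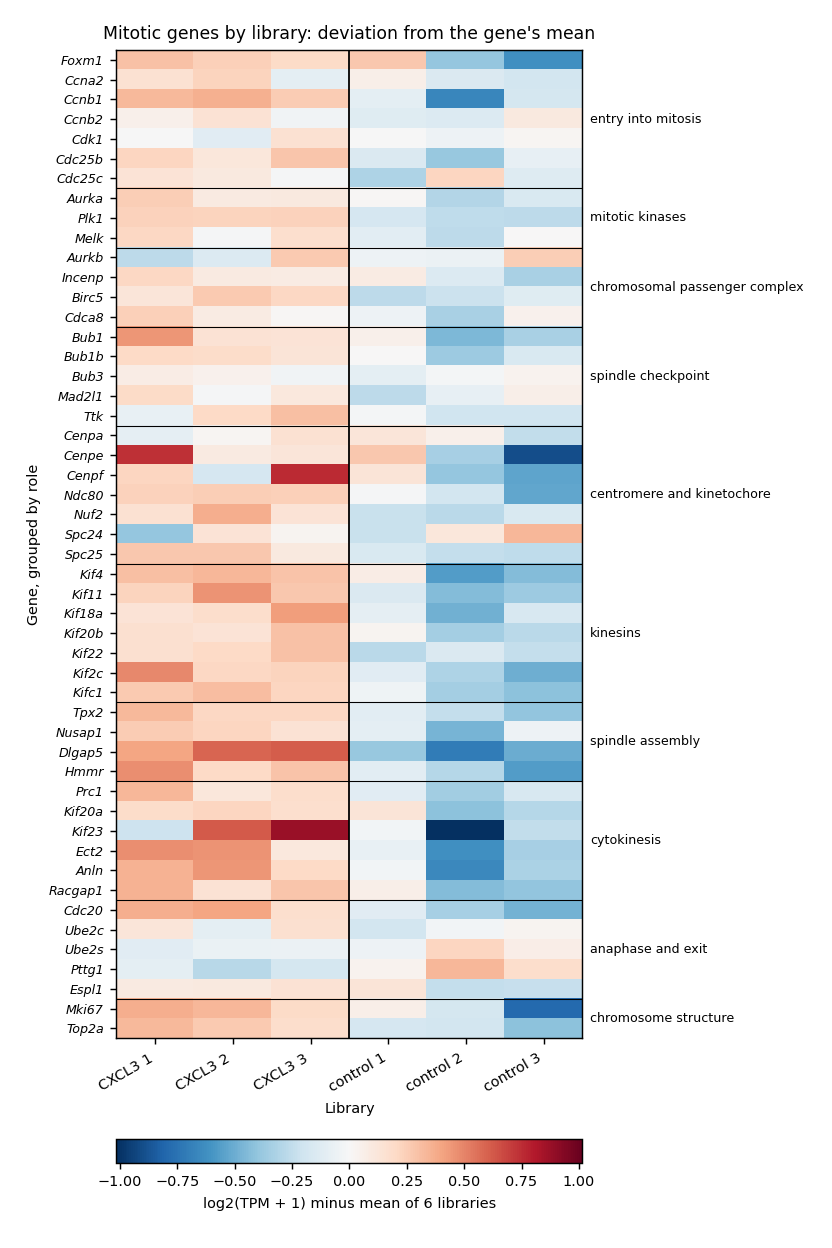
Deviation of each gene from its own mean over the 6 libraries (log2(TPM + 1), colour scale) for the 50 mitotic genes (rows, by role) in the 3 CXCL3 and 3 control libraries (columns). The CXCL3 columns are mostly above the mean, control 1 is near it with a median of -0.06, and controls 2 and 3 are below it with medians of -0.28 and -0.24.

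**Figure D3:**
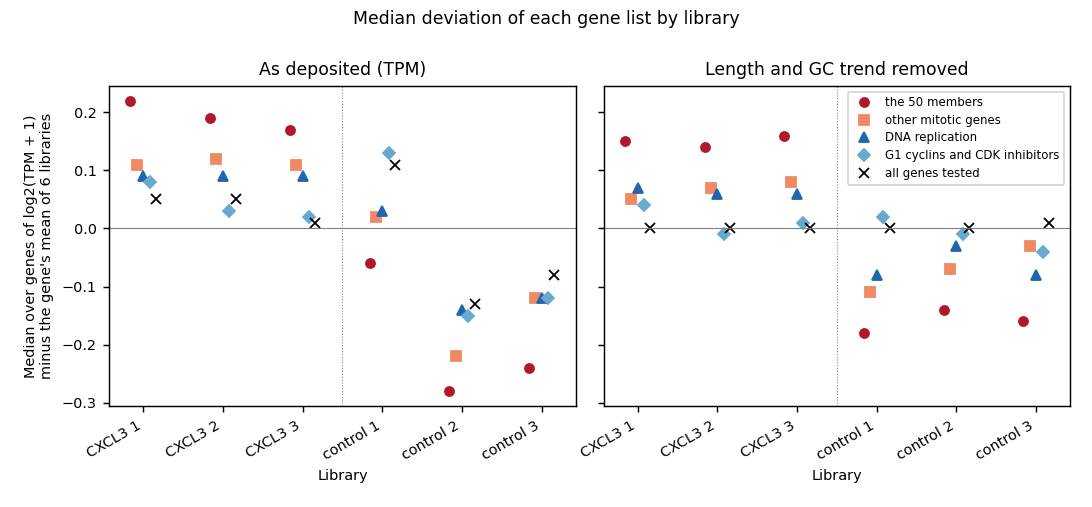
Median deviation (log2 scale, y axis) of 5 gene lists in each library (x axis), for the deposited TPM (left) and after a smooth dependence on length and GC content was taken out of each library (right). On the right, the 50 mitotic genes lie at 0.14 to 0.16 in the CXCL3 libraries and at -0.18 to -0.14 in the controls, while the median of all genes is near 0 in every library.

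The promoters of these genes were searched for the letters of cell cycle motifs. The choice of genes did not use these letters, but the programme is known for CHR and CCAAT promoters, as described above. The shares therefore describe the list and not a response to CXCL3. RefSeq promoter windows on GRCm38.p6, from 250 bases before to 50 bases after a transcription start, were found for 41 of the 50 genes (44 windows), without Ccna2, Cdc25c, Tpx2, Dlgap5, Spc24, Aurkb, Kif20a, Foxm1 and Incenp. A CHR, searched as TTTGAA or TTCGAA on both strands, was in a window of 32 of the 41 genes (78.0%), against 16.3% of the 9807 tested genes with a window. A CCAAT box, searched as CCAAT on both strands, was in a window of 29 of 41 (70.7%), against 43.1% of tested genes, and 27 genes held both (65.9%), against 6.91%. An E2F site of the form TTTCCCGC, TTTCGCGC, TTTGCCGC or TTTGGCGC, on both strands, was in a window of 2 of the 41 genes (4.88%), against 4.73% of tested genes and 17 of 41 DNA replication genes (41.5%). The 32 genes with a CHR had a median log2 fold change of 0.45 and the 9 without one 0.42. A match describes letters in this window and is not a measured binding site, and the CHR and CCAAT letters overlapped in 1 place over the 44 windows.

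The windows of Top2a, Cdc20, Spc25 and Plk1 are shown because these genes hold both motifs and had some of the smallest p-values, and that of Pttg1 because it had the lowest fold change and neither motif in its window. They are RefSeq sequences of GRCm38.p6, each 300 bases, written along the gene's strand. Capitals mark the CHR and CCAAT letters given above, on either strand. The Top2a window lies at chr11:99024140-99024439 (minus strand) and holds 4 CHR and 6 CCAAT matches. Those of Cdc20 at chr4:118437294-118437593 (minus strand) and Spc25 at chr2:69206164-69206463 (minus strand) hold 1 CHR and 2 CCAAT matches each. The Plk1 window at chr7:122159185-122159484 (plus strand) holds 1 of each, and the Pttg1 window at chr11:43425932-43426231 (minus strand) holds 0 of either. The Pttg1 window lies inside the GENCODE gene, whose first base on the minus strand is 43426251, so sequence before that base was not searched.
Top2a: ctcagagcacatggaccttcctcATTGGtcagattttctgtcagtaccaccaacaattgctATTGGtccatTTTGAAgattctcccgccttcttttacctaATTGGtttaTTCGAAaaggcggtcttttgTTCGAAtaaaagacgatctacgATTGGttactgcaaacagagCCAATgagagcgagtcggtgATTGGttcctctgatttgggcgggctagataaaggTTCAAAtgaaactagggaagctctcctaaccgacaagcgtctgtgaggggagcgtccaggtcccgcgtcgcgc
Cdc20: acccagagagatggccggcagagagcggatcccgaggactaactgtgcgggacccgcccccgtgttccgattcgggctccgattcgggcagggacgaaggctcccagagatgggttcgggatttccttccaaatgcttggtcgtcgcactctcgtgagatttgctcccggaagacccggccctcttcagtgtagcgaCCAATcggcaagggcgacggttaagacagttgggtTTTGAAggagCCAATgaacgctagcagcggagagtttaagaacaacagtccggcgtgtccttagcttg
Spc25: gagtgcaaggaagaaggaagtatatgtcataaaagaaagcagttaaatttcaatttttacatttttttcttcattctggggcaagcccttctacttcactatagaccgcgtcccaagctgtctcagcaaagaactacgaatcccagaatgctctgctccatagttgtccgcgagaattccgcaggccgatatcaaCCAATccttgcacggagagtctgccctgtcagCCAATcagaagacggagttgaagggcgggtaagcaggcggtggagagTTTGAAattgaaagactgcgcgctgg
Plk1: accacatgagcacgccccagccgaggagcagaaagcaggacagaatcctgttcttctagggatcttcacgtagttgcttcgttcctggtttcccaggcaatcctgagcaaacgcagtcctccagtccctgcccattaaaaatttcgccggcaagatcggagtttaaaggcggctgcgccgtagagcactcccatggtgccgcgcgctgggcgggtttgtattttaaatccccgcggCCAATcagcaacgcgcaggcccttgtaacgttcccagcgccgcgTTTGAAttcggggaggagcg
Pttg1: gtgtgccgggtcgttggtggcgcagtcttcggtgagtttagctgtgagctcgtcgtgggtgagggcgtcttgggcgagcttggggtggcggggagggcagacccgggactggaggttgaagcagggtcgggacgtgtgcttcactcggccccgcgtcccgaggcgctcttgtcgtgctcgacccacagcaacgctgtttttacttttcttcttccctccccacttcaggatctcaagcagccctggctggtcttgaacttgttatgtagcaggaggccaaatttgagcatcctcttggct

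**Figure D4:**
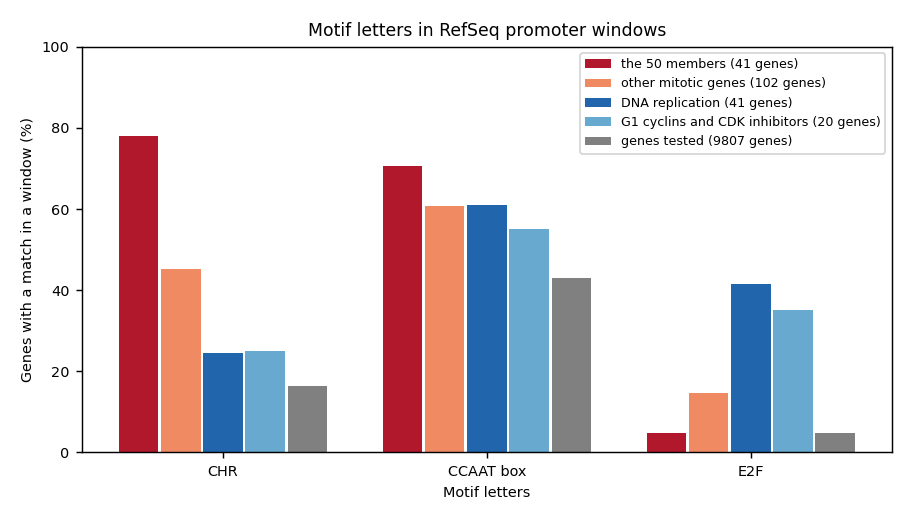
Share of genes (%, y axis) with at least 1 match to the letters of a CHR, a CCAAT box or an E2F site in a RefSeq promoter window, for 5 gene lists (bars). The 50 mitotic genes, of which 41 had a window, hold a CHR in 78.0% of genes and an E2F site in 4.88%, while DNA replication genes hold them in 24.4% and 41.5%.

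Among the 7 genes of mitotic entry, Ccnb1 and Cdc25b had groups apart, and Cdk1 stood level. All 7 fold changes were positive, with a median of 0.19. Ccnb1, which encodes cyclin B1, stood at 20.45, 20.9 and 19.4 TPM with CXCL3, against 14.9, 9.79 and 14.1 TPM in controls (log2 fold change 0.63 ± 0.16 SE, limma adjusted p = 0.249). Cdc25b, a phosphatase gene whose product activates CDK1, stood at 6.78, 6.25 and 7.12 TPM with CXCL3, against 5.04, 4.12 and 5.31 TPM in controls (0.41 ± 0.14, adjusted p = 0.362). In both, the lowest CXCL3 library lay above the highest control. Cdk1 itself was the most abundant of the 7, at 68.9, 63.5 and 76.8 TPM with CXCL3, against 68.9, 66.5 and 69.8 TPM in controls (0.02 ± 0.09, adjusted p = 0.899). Its groups overlapped, and its fold change was -0.05 with median-of-ratios scaling and -0.10 with the length trend removed.

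Foxm1, the gene of a transcription factor of this programme, differed among the controls more than between control 1 and the CXCL3 libraries. It stood at 8.15, 7.82 and 7.53 TPM with CXCL3, against 8.01, 4.66 and 3.84 TPM in controls 1, 2 and 3 (0.49 ± 0.23, adjusted p = 0.446). Control 1 lay among the CXCL3 libraries, and against control 1 alone the log2 fold change was -0.03. Ccna2 (cyclin A2), Ccnb2 (cyclin B2) and Cdc25c overlapped between groups, with log2 fold changes of 0.19, 0.11 and 0.15.

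Of the 3 other mitotic kinases, Plk1 had the tightest groups. Polo-like kinase 1 acts at centrosomes, kinetochores and the midzone, and its gene stood at 9.64, 9.57 and 9.66 TPM with CXCL3, against 7.04, 6.56 and 6.53 TPM in controls. The libraries of each group were close to each other and the groups lay apart (log2 fold change 0.46 ± 0.11 SE, limma adjusted p = 0.239, and 0.40 against control 1 alone). Aurka, of the centrosomal Aurora A kinase, stood at 12.9, 11.4 and 11.5 TPM with CXCL3, against 10.75, 8.49 and 9.50 TPM in controls (0.30 ± 0.13, adjusted p = 0.429). Melk, of a kinase present in proliferating cells, stood at 4.12, 3.39 and 3.98 TPM with CXCL3, against 3.09, 2.67 and 3.42 TPM in controls, and overlapped (0.25 ± 0.15).

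The 4 subunits of the chromosomal passenger complex, which corrects wrong attachments and guides cytokinesis, had unlike fold changes. Birc5, which encodes survivin, stood at 24.6, 27.3 and 26.2 TPM with CXCL3, against 18.5, 19.2 and 20.5 TPM in controls, with no overlap (log2 fold change 0.40 ± 0.09 SE, limma adjusted p = 0.216). Incenp, the scaffold, stood at 22.2, 20.31 and 20.22 TPM with CXCL3, against 20.16, 17.2 and 14.9 TPM in controls, with control 1 just under the lowest CXCL3 library (0.26 ± 0.13, adjusted p = 0.457). Aurkb, the kinase of the complex, stood at 8.36, 9.22 and 12.6 TPM with CXCL3, against 9.89, 9.84 and 12.4 TPM in controls (-0.09 ± 0.17, adjusted p = 0.794). Its groups overlapped and both spanned a similar range. Cdca8, of borealin, overlapped as well, with a log2 fold change of 0.22.

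The spindle checkpoint holds back anaphase until all kinetochores are attached. Its 5 genes all had positive fold changes (median 0.29), and 2 had groups apart. The kinase gene Bub1 stood at 7.20, 5.62 and 5.59 TPM with CXCL3, against 5.21, 3.38 and 3.77 TPM in controls (log2 fold change 0.49 ± 0.18 SE, limma adjusted p = 0.385). Bub1b, which encodes BUBR1, stood at 6.86, 6.76 and 6.46 TPM with CXCL3, against 5.85, 4.27 and 5.13 TPM in controls (0.35 ± 0.14, adjusted p = 0.424). In both, control 1 was the control nearest to the CXCL3 libraries. Bub3, which binds both of these kinases, was the most abundant of the 5 and overlapped at 85.8, 83.55 and 79.4 TPM with CXCL3, against 75.7, 80.2 and 83.1 TPM in controls (0.06 ± 0.07, and -0.05 with the length trend removed). Ttk, of the kinase MPS1 that starts checkpoint signalling, overlapped at 2.28, 2.97 and 3.28 TPM with CXCL3, against 2.40, 2.00 and 2.00 TPM in controls (0.29 ± 0.16). Mad2l1, of the checkpoint effector MAD2, overlapped with a log2 fold change of 0.19, which was -0.04 with the length trend removed.

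Of the 4 subunits of the NDC80 complex, which grips microtubule ends at the outer kinetochore, 3 had groups apart and the fourth did not. Spc25 stood at 21.03, 21.06 and 18.6 TPM with CXCL3, against 15.4, 14.4 and 14.3 TPM in controls (log2 fold change 0.43 ± 0.10 SE, limma adjusted p = 0.219). Nuf2 stood at 10.01, 11.8 and 9.89 TPM with CXCL3, against 7.45, 7.18 and 7.87 TPM in controls (0.44 ± 0.12, adjusted p = 0.284). Ndc80 stood at 7.67, 7.79 and 7.75 TPM with CXCL3, against 6.32, 5.48 and 4.12 TPM in controls (0.49 ± 0.16, adjusted p = 0.349). Against control 1 alone the log2 fold change was 0.37 for Spc25, 0.45 for Nuf2 and 0.26 for Ndc80. Spc24, the partner of SPC25, stood at 4.98, 7.65 and 7.02 TPM with CXCL3, against 5.70, 7.49 and 8.92 TPM in controls (-0.15 ± 0.20, adjusted p = 0.720).

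The other 3 centromere genes overlapped between groups. Cenpa, of the histone H3 variant that marks centromeres, stood at 10.99, 11.9 and 13.3 TPM with CXCL3, against 12.9, 12.2 and 9.75 TPM in controls (0.05 ± 0.14, and -0.10 against control 1 alone). Cenpe, of a kinetochore kinesin, stood at 5.34, 3.03 and 3.11 TPM with CXCL3, against 3.57, 2.00 and 1.03 TPM in controls (0.64 ± 0.32). Cenpf, of a large kinetochore protein, was the least abundant of the 50, at 1.12, 0.62 and 2.09 TPM with CXCL3, against 1.00, 0.39 and 0.26 TPM in controls (0.53 ± 0.28). The longest annotated transcripts of Cenpe and Cenpf have 7910 and 11130 bases, and for both the fold change against control 1 alone was smaller, 0.05 and 0.14.

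All 7 kinesin genes of the spindle had higher values in every CXCL3 library than in any control, with log2 fold changes from 0.40 to 0.64. None of the 7 passed over all genes. All 7 were higher at an unadjusted p under 0.05 by limma, where 5.93% of all genes were. Kif18a, 1 of the 7, reached the filter only through its CXCL3 libraries. This fixed its separation upward and its direction in the count by p. Kif11, of the motor EG5 that pushes spindle poles apart, stood at 4.83, 5.83 and 5.01 TPM with CXCL3, against 3.49, 2.66 and 2.86 TPM in controls (0.64 ± 0.15 SE, limma adjusted p = 0.217). Kifc1, of a minus-end motor that focuses spindle poles, stood at 14.45, 14.9 and 13.9 TPM with CXCL3, against 11.5, 9.11 and 8.64 TPM in controls (0.53 ± 0.13, adjusted p = 0.245). Kif2c, of the microtubule depolymerase MCAK, stood at 7.63, 6.14 and 6.21 TPM with CXCL3, against 4.70, 3.97 and 3.36 TPM in controls (0.62 ± 0.16, adjusted p = 0.261). In all 3, control 1 was the highest control and lay below the lowest CXCL3 library.

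Kif22, of a chromosome-arm motor, stood at 11, 11.3 and 12.1 TPM with CXCL3, against 7.86, 8.71 and 8.09 TPM in controls (0.44 ± 0.11, adjusted p = 0.261). Kif4, of the chromokinesin KIF4, stood at 4.06, 4.17 and 3.99 TPM with CXCL3, against 3.32, 1.76 and 2.02 TPM in controls (0.62 ± 0.19, adjusted p = 0.328). The remaining members Kif18a and Kif20b were near the low end of what was measured. Kif18a, of a motor that dampens chromosome oscillation, stood at 1.18, 1.24 and 1.66 TPM with CXCL3, against 0.86, 0.41 and 0.77 TPM in controls (0.49 ± 0.18). It was the 1 gene of the 50 that reached the filter of 1 TPM only through the CXCL3 libraries, which by itself fixes its direction. Kif20b stood at 1.46, 1.41 and 1.69 TPM with CXCL3, against 1.23, 0.73 and 0.81 TPM in controls (0.40 ± 0.16).

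The 4 spindle assembly genes, with Dlgap5 among them, all had groups apart. Tpx2, whose product activates Aurora A and nucleates microtubules at chromosomes, stood at 18.8, 17.2 and 17.2 TPM with CXCL3, against 13.6, 12.3 and 10.9 TPM in controls (log2 fold change 0.50 ± 0.12 SE, limma adjusted p = 0.216). Hmmr, of a microtubule-bound spindle protein that is also a hyaluronan receptor, stood at 7.17, 5.76 and 6.18 TPM with CXCL3, against 4.45, 3.80 and 2.96 TPM in controls (0.65 ± 0.17, adjusted p = 0.261). Nusap1, of a microtubule-bundling protein, stood at 6.26, 6.05 and 5.71 TPM with CXCL3, against 4.65, 3.37 and 4.84 TPM in controls (0.42 ± 0.16, adjusted p = 0.391). Against control 1 alone the 4 log2 fold changes ran from 0.31 for Nusap1 to 0.92 for Dlgap5.

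The 6 genes of cytokinesis all had positive fold changes, from 0.38 to 0.86, and 5 had groups apart. Prc1, whose product crosslinks the microtubules of the midzone, stood at 23.1, 19.7 and 20.55 TPM with CXCL3, against 16.6, 13.9 and 15.97 TPM in controls (log2 fold change 0.43 ± 0.11 SE, limma adjusted p = 0.266). Anln, of the actin-binding ring protein anillin, stood at 11.8, 12.7 and 10.6 TPM with CXCL3, against 8.86, 5.39 and 7.02 TPM in controls (0.67 ± 0.18, adjusted p = 0.266). Ect2, of the exchange factor that activates RhoA at the equator, stood at 6.47, 6.36 and 4.79 TPM with CXCL3, against 4.09, 2.49 and 3.26 TPM in controls (0.69 ± 0.19, adjusted p = 0.276). In all 3, control 2 was lowest.

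The 2 subunits of centralspindlin, which recruits ECT2 to the midzone, differed in their spread. Racgap1 stood at 19.3, 16.6 and 18.4 TPM with CXCL3, against 15.6, 10.73 and 11.03 TPM in controls (0.52 ± 0.16, adjusted p = 0.313). Kif23 had the widest spread of the 50 genes among the CXCL3 libraries (SD 0.57 on the log2 scale), at 6.69, 12.7 and 15.4 TPM with CXCL3, against 7.76, 3.41 and 6.51 TPM in controls, and overlapped (0.86 ± 0.34, adjusted p = 0.420). Kif20a, of the midzone kinesin MKLP2, stood at 10.9, 11.2 and 10.7 TPM with CXCL3, against 10.4, 6.83 and 7.56 TPM in controls (0.38 ± 0.16, adjusted p = 0.426). Control 1 lay just under the CXCL3 libraries for Kif20a, and against it alone the fold change was 0.06.

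The 5 genes of anaphase and mitotic exit split in direction. Cdc20, the activator of the anaphase-promoting complex (APC/C), stood at 20.2, 20.7 and 17.5 TPM with CXCL3, against 14.2, 12.05 and 10.8 TPM in controls (log2 fold change 0.62 ± 0.13 SE, limma adjusted p = 0.168). Pttg1, of securin, the inhibitor of separase that APC/C destroys at anaphase, lay the other way, at 39.1, 34.3 and 36.98 TPM with CXCL3, against 43.05, 53.2 and 47.6 TPM in controls. Its 3 CXCL3 libraries lay below every control (-0.37 ± 0.10, adjusted p = 0.282), also with control 1 alone as the control (-0.22). Ube2s, of the ubiquitin-conjugating enzyme that elongates chains on APC/C substrates, was the most abundant of the 50, at 197.8, 204 and 205 TPM with CXCL3, against 207, 249.9 and 225 TPM in controls (-0.16 ± 0.08, adjusted p = 0.457). Ube2c, of the enzyme that starts those chains, overlapped with a log2 fold change of 0.12, and Espl1, of separase, with 0.23.

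The 2 genes of chromosome structure, both common markers of proliferation, had groups apart. Top2a, which encodes the topoisomerase that untangles sister chromatids, stood at 37.7, 35.9 and 33.7 TPM with CXCL3, against 26.3, 26.1 and 22.0 TPM in controls (log2 fold change 0.51 ± 0.10 SE, limma adjusted p = 0.157). Mki67, of the chromosome surface protein Ki-67, stood at 5.88, 5.75 and 5.11 TPM with CXCL3, against 4.55, 3.71 and 2.09 TPM in controls (0.60 ± 0.22, adjusted p = 0.387). The longest annotated transcript of Mki67 has 10061 bases, and its fold change was 0.33 with the length trend removed and 0.24 against control 1 alone.

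The size of the difference was unequal over the 50 genes and went with level and transcript length in part. The 6 genes with a mean of at least 30 TPM were Ube2s, Bub3, Cdk1, Pttg1, Ube2c and Top2a, and of these Top2a alone had a ratio of means above 1.2. Over the 50 genes the ratio of means had a Spearman correlation of -0.53 with mean TPM, as a description of genes that share the same 6 libraries. The same correlation over all genes is not given, so it cannot be called particular to the 50. The log2 fold change had a Spearman correlation of 0.36 with transcript length over the 50 genes and of 0.45 over all genes tested. With the length and GC trend removed these were 0.07 and 0.05. The 11 members with a longest transcript under 2500 bases had a median log2 fold change of 0.30, where the 4599 genes of that length had -0.05. The 39 longer members had 0.44, where the 8515 genes of that length had 0.13. With the trend removed both classes of members had 0.33.

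**Figure D5:**
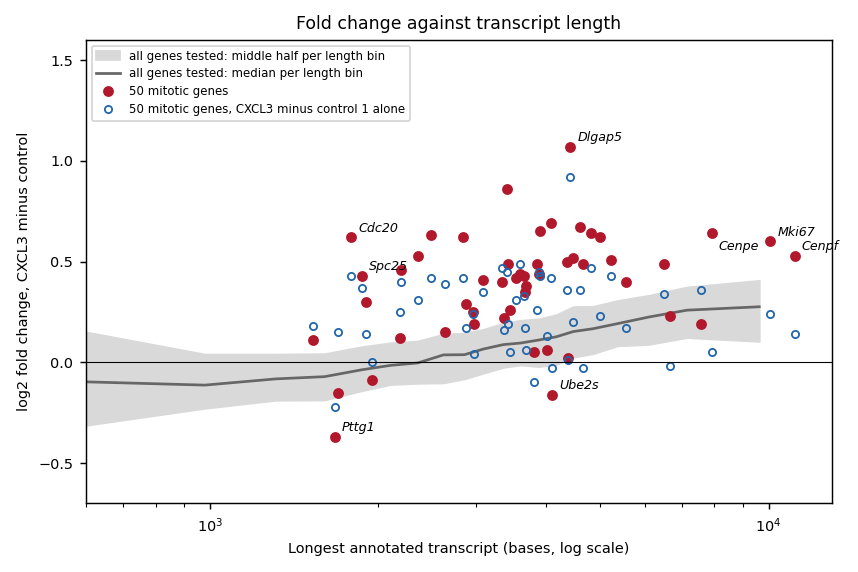
Log2 fold change (CXCL3 minus control, y axis) against the length of the longest annotated transcript (bases, log scale, x axis) for the 50 mitotic genes, with all 3 controls (filled) and with control 1 alone (open). The grey line and band are the median and interquartile range of all genes in bins of length, whose median runs from -0.094 at 552 bases to 0.276 at 9623 bases, and 46 of the 50 filled points lie above 0.

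Other genes of mitosis lay in the same direction with smaller values. Their lists were written for this comparison with earlier results of these data known. Of 122 listed, 117 were tested (Knl1, Ska1, Aspm, Kif14 and Depdc1b did not reach the filter), and 98 had a positive log2 fold change, with a median of 0.22. None passed by limma, while 26 were higher and 2 lower at an unadjusted p under 0.05, where 5.93% and 5.65% of all genes were. Groups were apart upward for 37 and downward for 3, where 7.92% and 9.31% of all genes were. Tacc3, of a spindle protein that works with clathrin on kinetochore fibres, averaged 26.9 TPM with CXCL3 and 16.4 TPM in controls (0.68 ± 0.14 SE, limma adjusted p = 0.170). Ckap2, of another spindle protein, averaged 19.9 TPM with CXCL3 and 14.9 TPM in controls (0.40 ± 0.10, adjusted p = 0.263).

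The 21 genes of cohesion and condensin had a median log2 fold change of 0.33, and of 0.07 against control 1 alone. Groups were apart upward for 11 of them, where 7.92% of all genes were. Smc2, a core condensin subunit gene, averaged 10.7 TPM with CXCL3 and 6.46 TPM in controls (0.68 ± 0.18 SE, limma adjusted p = 0.263), and Ncapg, of a condensin I subunit, 5.86 TPM with CXCL3 and 3.76 TPM in controls (0.53 ± 0.15, adjusted p = 0.290). The 31 other kinetochore and centromere genes tested had a median of 0.17 (0.12 against control 1 alone), with Zwilch of smallest p (log2 fold change 0.53). The 15 entry regulators had a median of 0.20 (0.14 against control 1 alone), with Cdca3 and Pbk of smallest p (0.41 and 0.58). The 26 other spindle genes had 0.22 (0.13 against control 1 alone) and the 8 other cytokinesis genes 0.26 (0.09 against control 1 alone), with Cep55 and Cit of smallest p among the cytokinesis genes (0.45 and 0.62). The list of APC/C held its subunits, the coactivator gene Fzr1 and the inhibitor gene Fbxo5. Of its 16 genes 8 had a positive fold change, against 62.3% of all genes, and the median was -0.02. Groups were apart upward for 0 and downward for 2, where 7.92% and 9.31% of all genes were. Cdc26 (-0.22 ± 0.09) and Anapc4 (-0.26 ± 0.12) had the smallest p of this list.

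Genes of the earlier cell cycle stages had smaller median fold changes than the 50 mitotic genes. The 50 DNA replication genes had a median log2 fold change of 0.16, with 42 positive, 0 past the threshold by limma, 13 higher and 0 lower at an unadjusted p under 0.05 (5.93% and 5.65% of all genes), and 19 apart upward (7.92% of all genes). Pold1, of the catalytic subunit of DNA polymerase delta, averaged 12.3 TPM with CXCL3 and 7.27 TPM in controls (0.69 ± 0.11 SE, limma adjusted p = 0.110), and Pola1, of polymerase alpha, 3.81 TPM with CXCL3 and 2.19 TPM in controls (0.60 ± 0.16, adjusted p = 0.266). The 27 genes of G1 cyclins, CDK inhibitors and E2F factors had a median of 0.10, with 21 positive, 0 past the threshold, 4 higher and 1 lower at an unadjusted p under 0.05, and 4 apart upward, against the same shares of all genes. Ccnd1, of cyclin D1, averaged 35.0 TPM with CXCL3 and 25.4 TPM in controls (0.47 ± 0.16, adjusted p = 0.362), and E2f7 2.27 TPM with CXCL3 and 1.25 TPM in controls (0.56 ± 0.18, adjusted p = 0.341). The medians without the length and GC trend were 0.33 for the 50 mitotic genes, 0.13 for the other mitotic genes, 0.12 for replication and 0.02 for G1. The difference between these lists was not tested.

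Whether reads were counted by strand is not given, and 7 of the 50 genes overlap an annotated gene of at least their own mean TPM on the opposite strand. These are Ccna2 with Exosc9, Bub3 with Fgfr2, Kif4 with Pdzd11, Kif18a with Mettl15, Kif20a with Cdc23, Cdc20 with Elovl1 and Ube2s with Rpl28. How reads of these pairs were divided is uncertain, and the part of this in their values was not tested.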

How the data were processed

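The authors deposited 1 table of TPM (51912 genes, 6 libraries, 0 columns of any other sample). GRCm38.p5, HISAT, fastp and RSEM are named, without versions or roles, per the submitters' processing notes. Annotation release, filters and strand setting are not stated there. Column totals of 984281 to 986705 TPM hold no read depth, a value depends on all other genes, and precision rests on the spread between libraries.

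Genes were matched to GENCODE M21 (51719 of 51912). Genes with at least 1 TPM in at least 3 of 6 libraries were kept, 13139 in all, the 50 members among them. Log2(TPM + 1) was tested with limma 3.58.1 in R 4.3.3 (mean-variance trend, two-sided, Benjamini-Hochberg over all kept genes, threshold 0.05). This scale understates changes of low genes. Single genes were not tested by permutation, since 3 against 3 libraries cannot go below p = 0.1. The fit was tested on simulated data. A library's trend was removed by loess (span 0.5) on length and GC of each gene's longest transcript, for the 13114 genes with a length. Members and lists were chosen with earlier results of these data known. Genes given in full are, in each role, those that passed, the 3 of smallest p, the most abundant and the lowest fold change, and in the other lists the 2 of smallest p, of which 1 is not reported here. Further members given in full (Kif18a, Kif22, Kif4, Racgap1, Kif23, Cenpa, Cenpe and Cenpf) were chosen after their values were seen.

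Alternatives were a pseudocount of 0.1 or 5, a filter of 5 TPM or none, scaling by median-of-ratios, by quantiles or without mitochondrial genes, robust eBayes or eBayes without trend, library weights, a block for replicate number, only protein-coding genes, the loess step alone and combined with weights or block, thresholds of 0.01 and 0.1, each library left out, and controls 2 and 3 left out. The loess step without controls 2 and 3 was added after the data were seen.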

Additional observations from a re-analysis of the deposited data

How the results depend on the processing

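Of the 50 mitotic genes, 1 passed the threshold (Dlgap5), and so it did with a pseudocount of 5, a filter of 5 TPM, quantile normalization, robust eBayes, protein-coding genes alone, the length and GC trend removed, and a threshold of 0.1. The number was 0 by limma with a pseudocount of 0.1, no filter, median-of-ratios scaling, mitochondrial genes removed, eBayes without trend, the threshold of 0.01, the replicate block, and the block with the trend removed, where 27 to 31 of the 50 genes were higher at an unadjusted p under 0.05, against 3.78% to 8.52% of all genes tested. Without controls 2 and 3 the single control is assumed to vary like the CXCL3 libraries, so only log2 fold changes are given for that setting. With library weights the number past the threshold was 22 (7.96% of all genes passed as higher and 3.04% as lower), and 10 with weights and the trend removed (1.44% and 2.14%). Leaving out 1 library gave 0 to 32 for the 50 genes, 0 to 51 for other mitotic genes, 0 to 19 for replication and 0 to 9 for G1, the highest each time without control 1, where 25.2% of all genes passed as higher and 7.17% as lower. Weights gave 23 other mitotic, 8 replication and 3 G1 genes, and with the trend removed 6, 5 and 1. The median log2 fold change of the 50 was 0.43, 0.28 with a pseudocount of 5, 0.25 without controls 2 and 3, and 0.38 to 0.47 with 1 library left out. The labels do not say whether replicate numbers pair the libraries. Deviations of same-numbered libraries correlated at 0.122, -0.011 and 0.077, and CXCL3 2 and 3 correlated best with another number. These values cannot exclude a pairing, since each deviation is taken from a mean of 3 libraries. The block gave 0 of the 50 genes past the threshold (Dlgap5 limma adjusted p = 0.0812). Direction held for 40 of the 50 genes in every one of the 23 settings that tested them (the filter of 5 TPM tested 39) and turned for 10: Foxm1 (0.49) at -0.03 without controls 2 and 3; Ccnb2 at -0.0038 with quantiles; Cdk1 at -0.05 with median-of-ratios or without CXCL3 3, and -0.10 with the trend removed, alone or with the block (-0.17 with weights), and at most 0.09 with 1 library left out; Bub3 at -0.02 with median-of-ratios and -0.05 with the trend removed, alone or with the block (-0.12 with weights); Mad2l1 at -0.04 with the trend removed, alone or with the block (-0.19 with weights). Cenpa was at -0.02 with median-of-ratios, -0.07 with quantiles, -0.04 with the trend removed, alone or with the block, -0.01 without CXCL3 3, -0.06 without control 3 (up to 0.13 with 1 library left out), and -0.10 without controls 2 and 3 (-0.0029 with the trend removed). Espl1 was at -0.01 with the trend removed, alone or with the block (-0.04 with weights), and -0.02 without controls 2 and 3. Aurkb was at 0.02 without CXCL3 1, 0.01 without control 3 (down to -0.25 with 1 library left out), and 0.0035 without controls 2 and 3 (0.07 with the trend removed). Spc24 was at 0.01 without CXCL3 1 (down to -0.30 with 1 library left out) and 0.15 without controls 2 and 3 (0.21 with the trend removed), where Ube2s and Anapc4 were both at 0.05. The cause was not tested.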
